A study of Mus musculus with 96 samples.

Results

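Liver genes of thyroid hormone action were followed here, 7 in all: Dio1, Thrb, Thra, Thrsp, Serpina7, Slc16a10 and Klf9. They were chosen by name, and all 7 had a probe set annotated with their symbol alone, out of 18193 genes so measured. The samples were livers of female and male CD-1 mice, an outbred stock, fed PB for 2 days or 7 days, at 6 doses that ran from 0 through 0.15, 1.5, 15 and 75 up to 150 (mg/kg-day). The labels do not expand PB, and the sample titles attach ppm to the numbers that the design text gives as mg/kg-day, which is the unit written here. Each of the 24 groups of sex, day and dose held 4 arrays, 96 in all, and the groups at 0 are the controls of the same sex and day. Genotype and age beyond the CD-1 stock are not given in the labels.

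Thyroid hormone leaves the gland mainly as thyroxine (T4), travels in blood bound to proteins made by the liver, and is carried into cells by membrane transporters. Inside the cell deiodinases remove iodine from T4 to give the active hormone T3 or to inactivate it. T3 binds the nuclear receptors encoded by Thra and Thrb, of which the Thrb product is the main one in hepatocytes, and the receptors then change the transcription of target genes such as Dio1, Thrsp and Klf9. The liver also disposes of the hormone by sulfation and glucuronidation, and in rodents drug-type inducers of the receptor CAR are known to raise those conjugating enzymes. Hormone in blood or tissue is not among the measurements used here.

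Expression is given as the deposited log2 value of the probe set with the highest mean for each gene, so a difference of 1 is a 2-fold difference. Levels of different genes cannot be ranked against each other, because probe sets differ in how brightly they hybridise. Differences were tested with limma over all 96 arrays, with Benjamini-Hochberg adjustment over the 18193 genes, and "rose" and "fell" are written only where the adjusted p was under 0.05. The labels do not say whether each array is a separate mouse, so p-values measure only the spread between these samples. Where livers are counted below, each is the liver sample on 1 array. In bulk liver, fewer cells of a type and less RNA per cell cannot be told apart.

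The treatment was checked in Cyp2b10, a cytochrome P450 that CAR induces. It was 5.44 (SE 0.40) higher at 150 than at 0 in females on day 2 and 6.11 (SE 0.40) higher in males on day 2, on the log2 scale. Among males on day 2, 1 array each at 15 and 75 went against its label: array 1 at 15 had a Cyp2b10 level of 13.66, while the other 3 lay between 11.07 and 11.29, and array 1 at 75 had 10.98, while the other 3 lay between 13.19 and 13.36. Results that rest on these 2 arrays are given with and without them. Xist ran from 4.63 to 5.89 on the arrays labelled male and from 12 to 12.5 on those labelled female. The hepatocyte markers measured (9 of 10) had a mean level between 13.80 and 13.97 over the arrays at 150, and between 13.86 and 14.02 at 0. The thyroid gland markers measured (5 of 6), which include thyroglobulin, had means between 4.95 and 5.17 at 150 and between 4.90 and 5.27 at 0. Stellate cell markers had means of 8.71 to 8.77 at 150 and 8.86 to 9.05 at 0 in females on day 2; the ranges did not overlap in females on day 7 or males on day 2 either, and overlapped in males on day 7 (8.32 to 8.67 at 150, against 8.61 to 8.96 at 0). In the average over sexes and days 5 of 10 stellate, 4 of 10 endothelial and 4 of 9 hepatocyte markers fell and none of them rose, with median changes of -0.19, -0.12 and -0.07, while 9.42% of all genes were called lower. Kupffer cell markers had means of 9.34 to 9.87 at 150 and 8.48 to 9.18 at 0 in males on day 7. There 2 of 10 rose, where 3.04% of all genes were called in either direction. In males on day 2 the ranges overlapped, with 8.74 to 9.13 at 150 and 8.97 to 10.16 at 0. None of the 10 was called there, where 4.9% of all genes were. In the average 1 of 10 rose, while 8.27% of all genes were called higher. The part of these cell types in the results below was not tested.

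The start regions of Thrsp, Klf9, Dio1 and Thrb are shown first. Their relation to the expression of these genes was not tested. They are the 250 bases upstream of the RefSeq start in assembly GRCm38.p6, written 5′ to 3′ on the gene's strand, with capitals for every AGGTCA (the thyroid hormone receptor half-site) and every CCAAT (a common promoter element), read on both strands. RefSeq windows matched 6 of the 7 genes by symbol; Thra had none in the table used. Thrsp lies at chr7:97417551-97417800 (minus strand), Klf9 at chr19:23140976-23141225 (plus strand), Dio1 at chr4:107307169-107307418 (minus strand), and the first of the 2 windows of Thrb at chr14:17660710-17660959 (plus strand).
Thrsp: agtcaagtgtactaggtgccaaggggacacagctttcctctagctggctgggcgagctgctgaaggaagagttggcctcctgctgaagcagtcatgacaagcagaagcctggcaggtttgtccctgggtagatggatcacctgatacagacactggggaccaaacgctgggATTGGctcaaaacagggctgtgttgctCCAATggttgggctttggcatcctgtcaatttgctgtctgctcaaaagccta
Klf9: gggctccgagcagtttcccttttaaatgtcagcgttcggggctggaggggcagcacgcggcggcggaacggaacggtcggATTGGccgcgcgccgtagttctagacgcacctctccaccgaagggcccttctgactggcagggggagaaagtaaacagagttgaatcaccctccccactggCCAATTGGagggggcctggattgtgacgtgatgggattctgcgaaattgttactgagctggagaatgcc
Dio1: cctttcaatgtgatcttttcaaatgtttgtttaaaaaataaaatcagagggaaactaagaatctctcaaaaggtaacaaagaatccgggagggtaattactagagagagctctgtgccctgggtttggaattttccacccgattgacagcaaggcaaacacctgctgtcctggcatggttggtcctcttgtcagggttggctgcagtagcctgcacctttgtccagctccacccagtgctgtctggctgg
Thrb: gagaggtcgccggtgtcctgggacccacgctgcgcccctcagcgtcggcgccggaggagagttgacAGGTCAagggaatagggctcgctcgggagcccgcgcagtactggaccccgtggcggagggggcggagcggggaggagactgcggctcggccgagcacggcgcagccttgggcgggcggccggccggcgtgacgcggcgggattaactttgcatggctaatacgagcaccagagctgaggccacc
AGGTCA was present in 1 of these windows, that of Thrb, at -184 from the start on the plus strand, and 14.0% of 32851 RefSeq windows of that length hold it. No window of a member held AGGTCA followed in the same orientation, after 4 bases of any kind, by AGGTCA again, which 5 of the 32851 windows hold. CCAAT occurred 2 times in the Thrsp window, at -79 on the reverse strand and -52 on the forward strand, and 3 times in the Klf9 window, at -170, -69 and -66, the last 2 on opposite strands and sharing bases. The Slc16a10 window, which is not printed, held CCAAT at -150 and -108. The windows of Dio1, Thrb and Serpina7 held none. That motif is found in 33.8% of all windows. The matches describe the letters of these windows only.

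**Figure D1:**
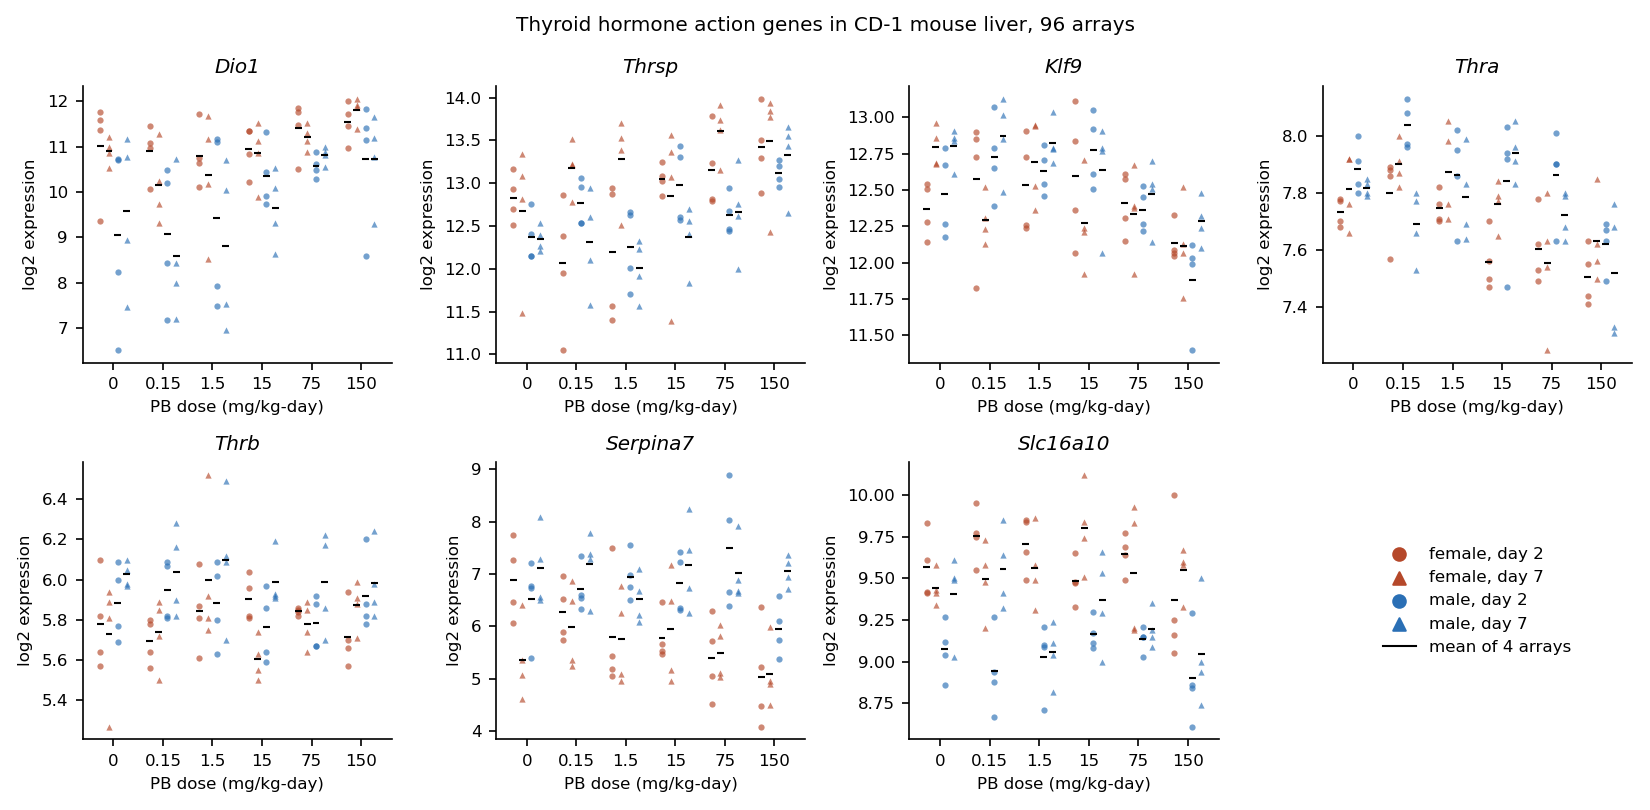
Log2 expression of the 7 genes on each of the 96 arrays against PB dose (mg/kg-day, one step per dose, not to scale), with females in red, males in blue, day 2 as circles, day 7 as triangles and the mean of 4 arrays as a black line. Mean Klf9 is lowest at 150 in each sex and day, mean Thra is lowest at 150 except in females on day 7 (7.56 at 75 and 7.63 at 150), mean Thrsp is highest at 150 except in females on day 7 (13.61 at 75 and 13.50 at 150), and Dio1 in males spreads from 6.51 to 11.16 at 0 and from 10.29 to 11 at 75.

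Averaged over both sexes and both days, 5 of the 7 genes differed between 150 and 0: Dio1 and Thrsp rose, and Klf9, Thra and Serpina7 fell. In that average of 16 arrays against 16, limma called 17.7% of all genes (8.27% higher and 9.42% lower). The median change of the 7 genes was -0.16, and that of all genes -0.01. The Klf9, Thra and Thrsp calls were kept in each of the 32 fits that left out 1 array; the Dio1 call was kept in 15 of 32, with an adjusted p of up to 0.111, and the Serpina7 call in 11 of 32, with an adjusted p of up to 0.0998. Thrb and Slc16a10 were not called.

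Within a single sex and day, where 4 arrays stood against 4, few of these differences passed. In females on day 2 at 150, 1 of 7 genes was called (Serpina7, lower), against 5.46% of all genes (2.14% lower). On day 7 the count in females was 1 of 7 (Klf9, lower), against 2.45% of all genes (0.923% lower). In males limma called 0 of 7 on day 2 and 0 of 7 on day 7, while 4.9% and 3.04% of all genes were called. At an unadjusted p under 0.05 there were 4 of 7 in males on each day and 2 of 7 in females on each day. Here and below, shares of all genes called are at the adjusted threshold. No share of all genes was counted at the unadjusted one, so counts at an unadjusted p have no share to compare with. The 4 arrays at 150 lay wholly on one side of the 4 at 0 in 9 of the 28 gene and group pairs: Thra in females on day 2, Dio1 and Klf9 in females on day 7, and Thra, Thrsp and Klf9 in males on both days. The share of all genes separated in that way was 10.1% in females on day 2, 8.65% in females on day 7, 10.2% in males on day 2 and 8.01% in males on day 7.

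**Figure D2:**
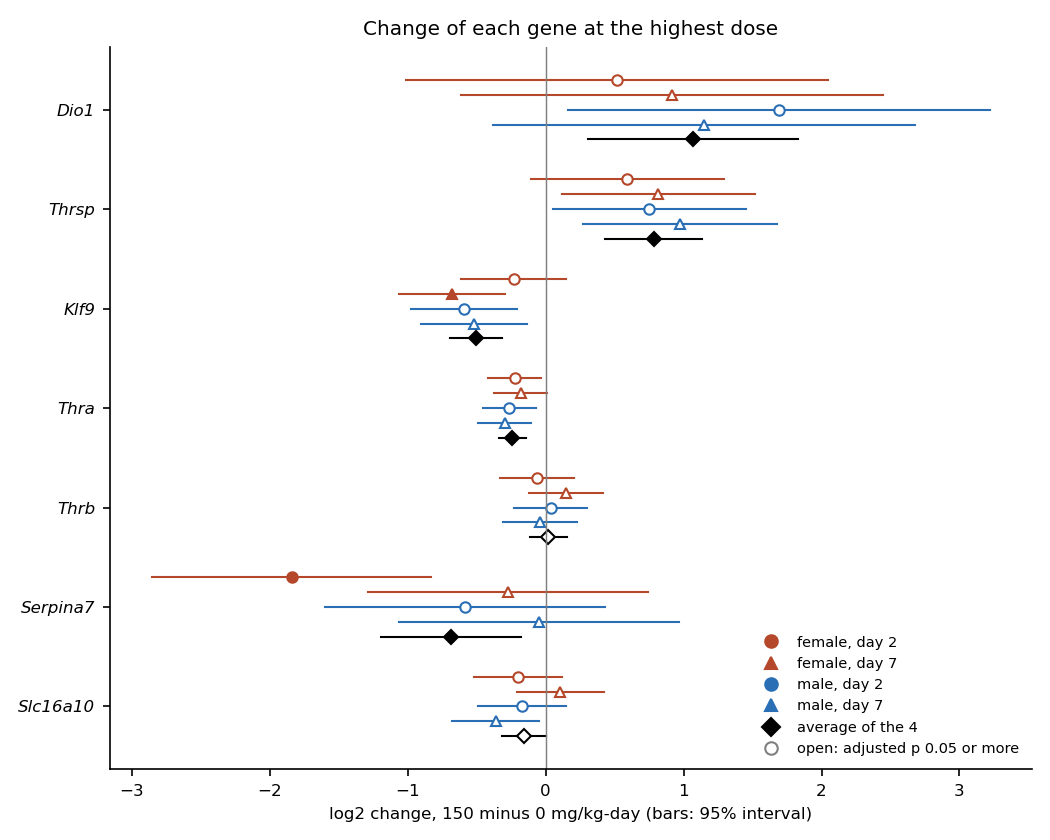
Log2 change of each gene at 150 against 0 mg/kg-day in each sex and day and in their average, with 95% intervals from limma and filled symbols where the adjusted p was under 0.05. The averages of Dio1 (1.07) and Thrsp (0.78) lie right of 0, those of Klf9 (-0.51), Thra (-0.24) and Serpina7 (-0.69) lie left of it, and Thrb (0.02) and Slc16a10 (-0.16) have open symbols.

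Serpina7 encodes thyroxine-binding globulin, a secreted liver protein that carries T4 in blood. Serpina7 levels in females on day 2 were 4.49, 5.22, 4.09 and 6.37 at 150, against 6.46, 7.27, 7.75 and 6.06 at 0. At 150, 3 of the 4 livers lay below every control, and the fourth, at 6.37, lay among them, so the groups overlapped. The level fell by 1.84 (SE 0.51) on the log2 scale, a 3.59-fold difference with a limma adjusted p of 0.0149. The call was lost when control array 2 or 3 or the 150 array 1 or 3 was left out, with an adjusted p of up to 0.0985. The lowest level, 4.09, is at the lower quartile of all probe sets on an array (3.91 to 4.09), so part of the measured range is near the dim end of the arrays.

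In females on day 2 Serpina7 was also below its controls at the middle doses, by log2 differences of -1.09 at 1.5, -1.09 at 15 and -1.49 at 75, none past the adjusted threshold. Its trend there, the least-squares slope of the log2 group means per step in dose rank, was -0.34 (SE 0.09, limma adjusted p = 0.00429). This call was kept in all 24 fits without 1 array. On day 7 the female groups overlapped throughout, with 4.91, 4.96, 5.99 and 4.51 at 150 and 4.61, 5.07, 6.41 and 5.36 at 0. The control females had means of 5.36 ± 0.76 on day 7 and 6.88 ± 0.76 on day 2 (SD, n = 4 each). The response at 150 on day 7 minus that on day 2 was 1.57 in females (95% interval 0.14 to 3.003), with an adjusted p of 0.537 by limma.

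In males Serpina7 had a mean of 5.95 ± 0.52 at 150 on day 2, against 6.53 ± 0.79 at 0, and of 7.06 ± 0.29 at 150 on day 7, against 7.11 ± 0.74 at 0 (SD, n = 4 each). Neither difference passed. Without PB the sexes differed on day 7: 7.28, 8.09, 6.56 and 6.51 in males and 4.61, 5.07, 6.41 and 5.36 in females. Every control male lay above every control female, and the difference of 1.74 (SE 0.51) had a limma adjusted p of 0.0216. It was lost when array 1 or 2 of either sex was left out. That was 1 of 14 comparisons of these genes between control males and females, where 2.06% of all genes were called on day 2 and 6.71% on day 7. On day 2 the same difference was -0.35 (SE 0.51), with overlapping groups.

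Slc16a10 encodes MCT10, a transporter of aromatic amino acids that also carries thyroid hormone. It was not called in any comparison of a PB dose with 0. Male livers on day 7 had 8.74, 9, 8.94 and 9.50 at 150, against 9.03, 9.61, 9.50 and 9.49 at 0. At 150, 3 of the 4 livers lay below all controls and the fourth among them, with a difference of -0.36 (SE 0.16; limma adjusted p = 0.237). In females on day 7 the difference was 0.11 (SE 0.16). The response in males minus that in females on day 7 was -0.47 (95% interval -0.92 to -0.02; limma adjusted p = 0.997). In control livers on day 2 Slc16a10 was 9.12, 8.86, 9.04 and 9.27 in males and 9.41, 9.83, 9.61 and 9.42 in females, with no overlap and a difference of -0.49 (SE 0.16) that missed the threshold (limma adjusted p = 0.0922). Its highest group mean was 9.80 ± 0.25, in females on day 7 at 15, and its lowest 8.90 ± 0.28, in males on day 2 at 150 (SD, n = 4 each).

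Dio1 encodes the type 1 deiodinase, the selenoenzyme by which liver converts T4 to T3 and clears reverse T3. It had the largest rise of the 7 genes in the average, 1.07 (SE 0.38), a 2.10-fold difference with a limma adjusted p of 0.0412, and its sign was positive in all 4 sex and day pairs. Male livers on day 2 had 8.58, 11.14, 11.82 and 11.40 at 150, against 8.24, 6.51, 10.71 and 10.72 at 0. At 150, 3 livers lay above every control, and 1 lay among the controls. Those of day 7 had 11.65, 11.19, 9.29 and 10.78 at 150, against 10.78, 7.45, 8.93 and 11.16 at 0, again with overlap. Female livers on day 7 were apart: the 4 at 150 (12.06, 11.88, 11.39 and 11.91) lay above all 4 controls (11.21, 10.52, 10.86 and 10.99). Those of day 2 had 12.01, 10.97, 11.71 and 11.45 at 150, against 9.36, 11.59, 11.36 and 11.77 at 0, where 1 low control set most of the difference; without it the difference was -0.04.

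Dio1 differed widely between livers of the same sex and dose. The range over 8 livers was wider in males than in females at every dose but 75, where it was 0.71 in males and 1.35 in females. Over the 8 male livers of a dose the values spanned 6.51 to 11.16 at 0, 7.18 to 10.72 at 0.15, 6.95 to 11.16 at 1.5, 8.64 to 11.32 at 15, 10.29 to 11 at 75 and 8.58 to 11.82 at 150. The male medians in that order were 9.82, 8.43, 8.99, 10, 10.71 and 11.16. The lowest male liver at 75 was thus at 10.29, and at every other dose, 150 among them, male livers fell on both sides of that level. Without the 2 doubted arrays the male spans at 15 and 75 were the same, with medians of 10.09 and 10.81. The doubted array labelled 15 had 9.73, below that level, and the doubted array labelled 75 had 10.62. The lowest male level at 75 is 10.29 for the labels as given. It would be 9.73 if those 2 labels were exchanged. In females the values spanned 9.36 to 11.77 at 0, 9.31 to 11.46 at 0.15, 8.52 to 11.72 at 1.5, 9.88 to 11.53 at 15, 10.50 to 11.85 at 75 and 10.97 to 12.06 at 150, with medians of 11.10, 10.61, 10.69, 11, 11.39 and 11.80 from 0 to 150.

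The Dio1 trend per dose step was 0.40 (SE 0.13) in males on day 2 and 0.38 (SE 0.13) in males on day 7, with limma adjusted p of 0.0510 and 0.0802. Without the 2 doubted arrays the trend in males on day 2 was 0.40 (SE 0.13; adjusted p = 0.0556). Control males had lower Dio1 than control females on both days, by log2 differences of -1.98 (SE 0.77) on day 2 and -1.31 (SE 0.77) on day 7, neither of which passed (limma adjusted p = 0.211 and 0.363).

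The gene most alike to Dio1 over the 96 arrays, after the mean of each sex and day was subtracted, was Yipf1, its next neighbour on chromosome 4 among measured genes in the RefSeq order. Pearson's r was 0.73 and Spearman's rho 0.72, and r was 0.71 without the 2 arrays farthest from the median of Yipf1. Within groups, after each group's mean was subtracted, r was 0.83 over the 48 male arrays and 0.76 over the 48 female arrays. The arrays of a group share dose, sex and day, and the arrays share a normalization, so r is given as a description. Yipf1 itself was not called at 150, with a difference of 0.09 in the average (limma adjusted p = 0.446), and in the 4 sex and day pairs it ran from -0.06 to 0.22. The other 5 nearest measured genes had r between -0.04 and 0.26. Next in likeness were Ttc39a (0.53), which also lies on chromosome 4, and Papss2 (0.52), which supplies the sulfate donor for sulfation. The least alike were Etnppl (-0.45), Hectd2os (-0.44) and Pon1 (-0.43). Within groups these r were 0.40, 0.30, -0.25, -0.15 and -0.33 in that order. In the average at 150 Ttc39a and Papss2 rose, and Etnppl, Hectd2os and Pon1 fell.

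**Figure D3:**
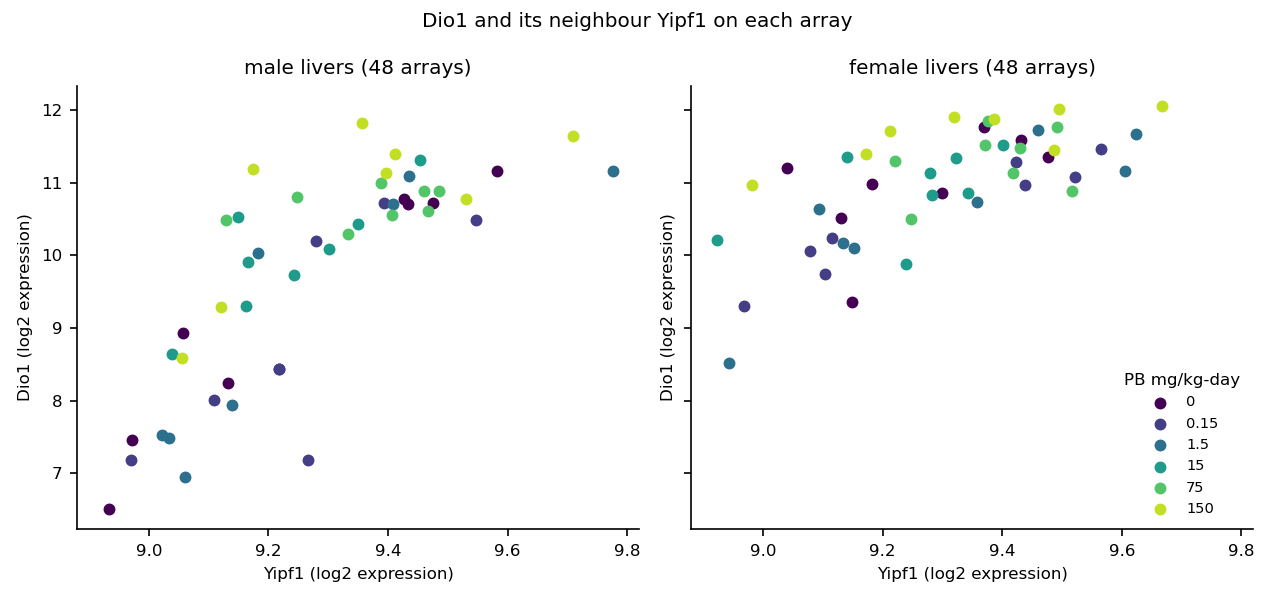
Log2 expression of Dio1 against that of its chromosome 4 neighbour Yipf1 on each array, in male (left) and female (right) livers, coloured by PB dose. In both sexes arrays with more Yipf1 have more Dio1 (r within groups 0.83 in males and 0.76 in females), and the livers with the lowest Dio1, down to 6.51, are males at low doses.

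Thrb encodes the receptor that carries most of the hormone's action in hepatocytes. It was not called at any dose. Averaged over sexes and days it was 5.87 ± 0.18 at 150 and 5.86 ± 0.23 at 0 (SD, n = 16 each), a difference of 0.02 with a 95% interval of -0.12 to 0.15 and a limma adjusted p of 0.897. Its only probe set was fairly dim, from 5.27 to 6.52 over all arrays, with a mean below the median gene mean of 6.46. Whether that probe set registers changes in Thrb was not tested. In the 4 sex and day pairs the difference at 150 ran from -0.06 in females on day 2 to 0.15 in females on day 7, with overlapping groups in each. The highest group mean, 6.10 ± 0.32 in males on day 7 at 1.5, and the lowest, 5.61 ± 0.11 in females on day 7 at 15, followed no order of dose. Its most alike gene was Nkiras1 (r = 0.48), which lies 2 measured genes away on chromosome 14, and the least alike was Rfwd3 (r = -0.45).

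Thra, the other receptor gene, fell. The average difference was -0.24 (SE 0.05), a 1.18-fold lower level with a limma adjusted p of 8.54e-05, and the sign was negative in all 4 sex and day pairs. Thra levels in males on day 7 were 7.33, 7.68, 7.31 and 7.76 at 150, against 7.80, 7.85, 7.83 and 7.79 at 0. On day 2 the male levels were 7.63, 7.69, 7.67 and 7.49 at 150, against 7.80, 8, 7.91 and 7.83 at 0. In both cases every liver at 150 lay below every control, with differences of -0.30 (SE 0.10) and -0.26 (SE 0.10) and limma adjusted p of 0.0763 and 0.111. On day 2 the female livers at 150 (7.63, 7.44, 7.55 and 7.41) also lay below all controls (7.78, 7.77, 7.70 and 7.68), while in females on day 7 the groups overlapped (7.62, 7.56, 7.50 and 7.85 at 150, against 7.76, 7.66, 7.92 and 7.92 at 0).

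The fall of Thra was small and was also read as a trend over the 6 doses, of -0.05 (SE 0.02) per step in females on day 2, -0.06 (SE 0.02) in females on day 7 and -0.05 (SE 0.02) in males on day 2, all called by limma (adjusted p = 0.0208, 0.0215 and 0.0338). Without the 2 doubted arrays the trend in males on day 2 was -0.06 (SE 0.02; adjusted p = 0.0148). Over the 3 trends the calls were kept in 21, 19 and 17 of 24 fits that left out 1 array. The probe sets 1454675_at and 1426997_at of Thra had average differences of -0.21 (SE 0.05), which was called, and -0.11 (SE 0.05), which was not (limma adjusted p = 0.129). Nr1d1, a clock repressor, lies antisense to the end of Thra, and whether these probe sets take signal from it was not tested; its own average difference was -0.05 (SE 0.10; adjusted p = 0.778). The genes least alike to Thra were Gstm2 (r = -0.56), Ugt2b34 (-0.55) and Cyp2c55 (-0.54), each of which rose at 150 in the average; within groups these r were between -0.07 and 0.06.

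Thrsp encodes Spot 14, a nuclear protein of lipid-making tissues that T3 and dietary carbohydrate raise. It rose by 0.78 (SE 0.18) in the average, 1.72-fold, with a limma adjusted p of 0.000473, and its sign was positive in all 4 sex and day pairs. Thrsp levels in males on day 7 were 13.43, 12.65, 13.55 and 13.66 at 150, against 12.39, 12.27, 12.21 and 12.53 at 0. On day 2 the males had 13.27, 13.20, 12.96 and 13.05 at 150, against 12.41, 12.15, 12.15 and 12.76 at 0. All 8 male livers at 150 lay above the controls of their day, by 0.97 (SE 0.35) on day 7 and 0.75 (SE 0.35) on day 2, with limma adjusted p of 0.123 and 0.259. In females the groups overlapped on both days. On day 7 the female livers at 150 had 13.78, 13.84, 12.43 and 13.94, against 11.48, 13.08, 12.82 and 13.34 at 0, and 1 low liver on each side lay apart from the others. On day 2 they had 12.89, 13.51, 13.99 and 13.30 at 150, against 12.51, 12.93, 12.70 and 13.17 at 0.

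The medians of Thrsp over the 8 livers of a sex and dose were 12.88, 12.82, 12.91, 13.08, 13.43 and 13.64 in females from 0 to 150, and 12.33, 12.58, 12.12, 12.59, 12.65 and 13.23 in males, where those at 15 and 75 were 12.57 and 12.62 without the doubted arrays. Its trend was called in females on day 2, at 0.20 (SE 0.06) per step (limma adjusted p = 0.0171). That call was lost when array 4 at 0.15, array 1 at 0 or array 3 at 150 was left out, with an adjusted p of up to 0.0666. Thrsp in these females differed from controls by -0.77 at 0.15, -0.63 at 1.5, 0.23 at 15, 0.33 at 75 and 0.59 at 150. None of these was called, and the slope draws partly on the lower levels at 0.15 and 1.5. The probe set 1422973_a_at rose by 1.01 (SE 0.21) in the average, and the dimmer 1444166_at differed by 0.05 (SE 0.06; not called). The strongest relation of Thrsp to any gene was an inverse one, with Tab2 (r = -0.79), followed by Clpx (-0.75) and Tgoln1 (-0.72), and it remained within groups (-0.73, -0.66 and -0.60). The most alike were Wee1 (0.65), Azin1 (0.64) and Stbd1 (0.64).

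Klf9 encodes a zinc-finger transcription factor that both T3 and glucocorticoids raise. It fell by 0.51 (SE 0.10) on the log2 scale in the average, 1.42-fold, with a limma adjusted p of 3.38e-05, the smallest of the 7 genes. Klf9 levels in females on day 7 were 12.07, 12.13, 12.52 and 11.76 at 150, against 12.96, 12.69, 12.86 and 12.68 at 0. Every liver at 150 lay below every control, and the difference of -0.68 (SE 0.19) was called (limma adjusted p = 0.0356). The call was lost when control array 1, 2 or 3 or the 150 array 1, 2 or 4 was left out, with an adjusted p of up to 0.179, while the difference stayed between -0.81 and -0.56.

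Klf9 in males on day 2 was 11.40, 11.99, 12.12 and 12.03 at 150, against 12.27, 12.79, 12.18 and 12.67 at 0. On day 7 the males had 12.32, 12.24, 12.48 and 12.10 at 150, against 12.84, 12.86, 12.91 and 12.61 at 0. The groups did not overlap on either day, and the differences were -0.59 (SE 0.19; limma adjusted p = 0.0561) and -0.52 (SE 0.19; adjusted p = 0.136). In females on day 2 the difference was smaller, -0.23 (SE 0.19), with 12.07, 12.05, 12.09 and 12.33 at 150, against 12.28, 12.54, 12.51 and 12.14 at 0, and the groups overlapped. The response of females on day 7 minus that on day 2 was -0.45 (95% interval -0.99 to 0.10), so a difference between the days was not shown.

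Other probe sets of Klf9 gave the same direction. Of its 7 probe sets, 1428288_at fell by 0.52 (SE 0.07), 1428289_at by 0.54 (SE 0.07), 1422264_s_at by 0.49 (SE 0.11), 1436763_a_at by 0.47 (SE 0.12) and 1436952_at by 0.36 (SE 0.10) in the average, all called, and 1452723_at differed by -0.14 (SE 0.06; limma adjusted p = 0.104). For males on day 2, 1428288_at fell by 0.73 with an adjusted p of 9.16e-05, 1428289_at by 0.70 with an adjusted p of 0.000667, and 1422264_s_at by 0.72 with an adjusted p of 0.0348. The male day 2 difference did not pass on 1436763_a_at (-0.53; adjusted p = 0.240), 1436952_at (-0.18; adjusted p = 0.763) or 1452723_at (-0.11; adjusted p = 0.731). On 1428288_at the male day 7 difference passed too (-0.47; adjusted p = 0.0321). The call in females on day 7 was lost on 1436763_a_at (-0.77; adjusted p = 0.0628), 1422264_s_at (-0.54; adjusted p = 0.208) and 1452723_at (-0.11; adjusted p = 0.770). For Slc16a10, the probe set 1453675_at fell by 0.19 (SE 0.07) in the average (adjusted p = 0.0346), and the other 2 alternatives differed by -0.03 and 0.01, not called. Dio1, Thrb and Serpina7 each had 1 probe set.

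**Figure D4:**
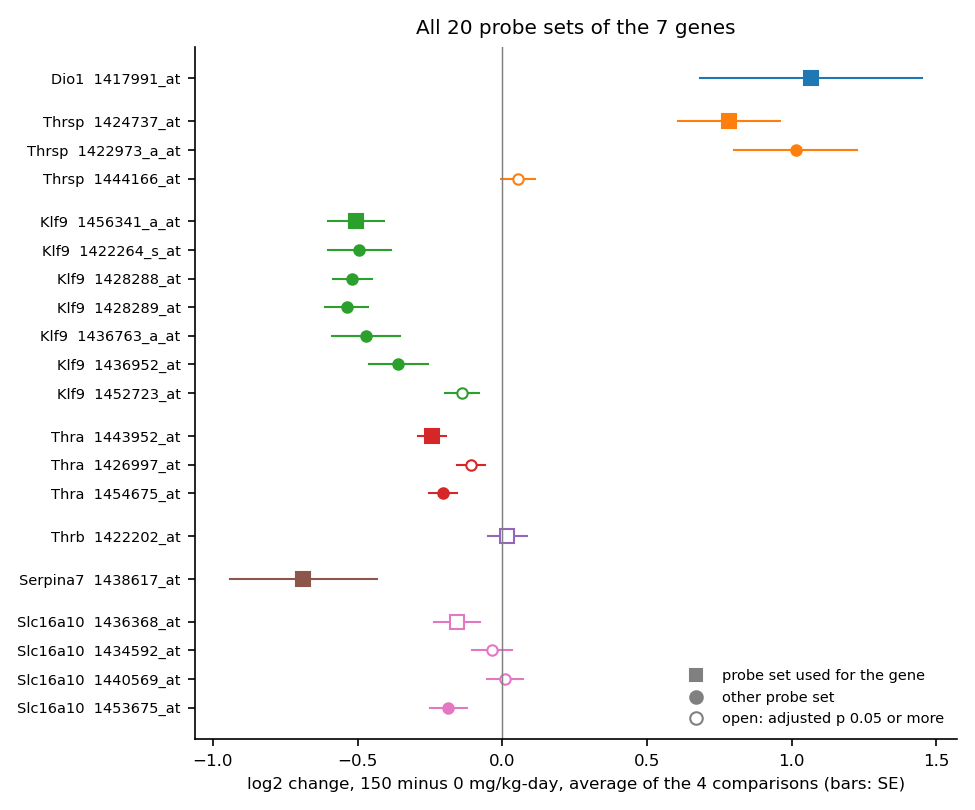
Average log2 change at 150 against 0 mg/kg-day, with SE bars, for each of the 20 probe sets of the 7 genes, squares for the probe set used and filled symbols where the adjusted p was under 0.05. Of the 7 Klf9 probe sets, 6 lie between -0.54 and -0.36, and 2 of the 3 Thrsp probe sets lie at 0.78 and 1.01, with the third at 0.05.

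Over the 6 doses Klf9 fell with rank in females on day 7 (-0.11 per step, SE 0.03), males on day 2 (-0.11, SE 0.03) and males on day 7 (-0.11, SE 0.03), with limma adjusted p of 0.0427, 0.0220 and 0.0246. In females on day 7 Klf9 differed from its controls by -0.499 at 0.15, -0.1 at 1.5, -0.525 at 15 and -0.459 at 75. These differences, none of them called, did not grade with dose, and every liver at 0.15 lay below every control. Without the 2 doubted arrays the male day 2 trend was -0.11 (SE 0.03; adjusted p = 0.0262). The call in females on day 7 was kept in 10 of 24 fits that left out 1 array, that in males on day 2 in 21 and that in males on day 7 in 20. The medians over 8 livers ran 12.73, 12.82, 12.75, 12.78, 12.48 and 12.11 in males from 0 to 150, and 12.61, 12.41, 12.63, 12.30, 12.38 and 12.08 in females, so the male medians were lower at 75 and 150 while those up to 15 lay together, also without the doubted arrays (12.79 at 15 and 12.51 at 75). The gene most alike to Klf9 was Cpt1a (r = 0.77), which admits long-chain fatty acids to mitochondria and is itself raised by T3, and it fell by 0.38 (SE 0.07) in the average. Zmym5 (0.77) and Chd7 (0.74) followed, and Cstf3 (-0.68), Tubb4b (-0.67) and Mast2 (-0.66) were the least alike. On chromosome 19, Abhd17b, 3 measured genes away, had an r of 0.57, and Cemip2, 2 away, an r of 0.48.

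Taking the 4 sex and day pairs, 8 of 28 trends over dose rank were called, with 14 at an unadjusted p under 0.05. They were Thra, Thrsp and Serpina7 in females on day 2, Thra and Klf9 in females on day 7, Thra and Klf9 in males on day 2 and Klf9 in males on day 7. The share of all genes with a called trend was 8.73%, 4.35%, 6.04% and 4.46% in that order of sex and day. At 75, limma called 0 of 28 differences of these genes from 0 (4 at an unadjusted p under 0.05), where 0.451%, 0.764%, 0.44% and 0.247% of all genes were called. Those 4 were Serpina7 in females on day 2 (-1.49) and Thra (-0.26), Thrsp (0.92) and Klf9 (-0.46) in females on day 7. At 15, 1.5 and 0.15 it called 0 of 84, with 8 at an unadjusted p under 0.05, while the share of all genes called was 0.022%, 0.022%, 0.0385% and 0.011% at 15 and 0% to 0.0055% at 1.5 and 0.15, for females on day 2, females on day 7, males on day 2 and males on day 7. Leaving out the 2 doubted arrays also gave 0 of 7 calls in males on day 2 at 75 and at 15, and 2 of 7 trends.

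The responses at 150 were not shown to differ between the sexes or the days for any of the 7 genes. Of 14 differences between males and females limma called 0, with 1 at an unadjusted p under 0.05 (Slc16a10 on day 7), against 0.0055% of all genes on day 2 and 0.0879% on day 7. Of 14 differences between day 7 and day 2 it called 0, again with 1 at an unadjusted p under 0.05 (Serpina7 in females), against 0.874% of all genes in females and 0.132% in males. For Dio1 the difference between the sexes on day 2 had a 95% interval of -0.99 to 3.34.

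The correlations among the 7 genes themselves were weak over the 96 arrays, after the mean of each sex and day was subtracted. The strongest were inverse, between Thrsp and Klf9 (r = -0.39) and between Thrsp and Thra (r = -0.38), and the strongest positive one was between Dio1 and Thrsp (r = 0.29). Dio1 and Klf9 had an r of -0.28. The dose itself is part of these values, since the arrays of all doses are in them.

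Around the 7 genes, most of the conjugating enzymes rose. Of 11 measured genes of thyroid hormone conjugation, 6 rose in females on day 2, 5 in females on day 7, 6 in males on day 2 and 6 in males on day 7, and none fell, where 5.46%, 2.45%, 4.9% and 3.04% of all genes were called in either direction. In the average 10 of 11 rose, with 8.27% of all genes called higher, and the median change was 0.59 against -0.01 over all genes. Sult1c2, a sulfotransferase, rose by 1.60 (SE 0.13) in the average, and Ugdh, which makes the sugar donor for glucuronidation, by 0.80 (SE 0.07). Ugt2b34, a glucuronosyltransferase, rose by 0.75 (SE 0.03). Sult1e1, the estrogen sulfotransferase that also acts on thyroid hormone, rose by 1.89 (SE 0.27) in the average and by 4.14 (SE 0.54) in females on day 7, where its mean was 9.09 ± 1.20 at 150 and 4.96 ± 0.98 at 0 (SD, n = 4 each). It was not called in females on day 2 (1.50; limma adjusted p = 0.0963), males on day 2 (0.70; adjusted p = 0.590) or males on day 7 (1.22; adjusted p = 0.247). Members of the Ugt1a cluster had no probe set of their own here.

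Of 12 measured genes of transport and binding, 3 rose and 1 fell in the average. Over all genes, that average had 8.27% called higher and 9.42% called lower. The gene of this list that fell was Serpina7. Among those that rose were the uptake transporters Slco1a4, by 0.40 (SE 0.13), and Slc10a1, by 0.12 (SE 0.03), while Ttr, another carrier of T4 in blood, differed by -0.02 (SE 0.02; adjusted p = 0.454). Of 6 genes of deiodination and recycling, Dio1 rose and Sephs2, which makes the selenium donor for selenoproteins, fell by 0.18 (SE 0.03). Of 17 receptor and cofactor genes, none rose and 4 fell in the average, among them Thra, Tbl1x, a subunit of the corepressor complex (-0.33, SE 0.04), and Rxrb, a partner receptor (-0.14, SE 0.04).

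Genes that T3 is known to raise in liver did not move as one. Of 24 measured, 4 rose and 8 fell in the average, with a median change of 0.00. Over all genes, 8.27% were called higher there and 9.42% lower. Beside Dio1 and Thrsp, Me1, the cytosolic malic enzyme that makes NADPH for lipid synthesis, rose by 0.47 (SE 0.10), and Mlxipl, a carbohydrate-sensing activator of lipid genes, by 0.18 (SE 0.05). Beside Klf9 and Cpt1a, Angptl4, an inhibitor of lipoprotein lipase, fell by 0.93 (SE 0.17), Fgf21, a fasting hormone, by 0.69 (SE 0.12), and Slc25a20, the carnitine carrier of mitochondria, by 0.35 (SE 0.05).

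Of 19 lipogenic genes, 6 rose and 3 fell in the average, with a median change of 0.07. Fads1, a fatty acid desaturase, rose by 0.18 (SE 0.05), and Elovl5, a fatty acid elongase, fell by 0.26 (SE 0.05). Of 16 genes that glucocorticoids induce, 3 rose and 5 fell, among them Tsc22d3, a classic glucocorticoid target that fell by 0.53 (SE 0.10), Zbtb16, which fell by 0.67 (SE 0.17), and Gadd45b, which rose by 1.55 (SE 0.13). Of 17 clock genes none rose and 4 fell, one of them Clock, by 0.23 (SE 0.07). In these averages 17.7% of all genes were called.

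**Figure D5:**
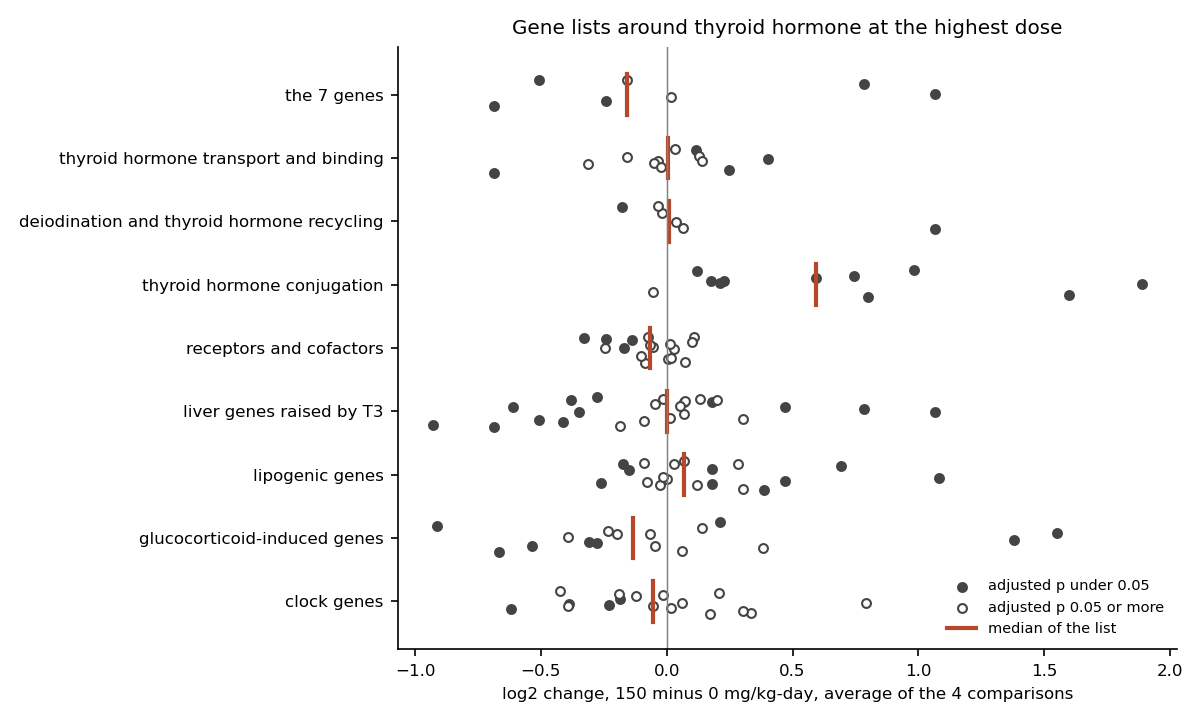
Average log2 change at 150 against 0 mg/kg-day for each measured gene of 9 lists, filled where the adjusted p was under 0.05, with the median of the list in red. The conjugation list has its median at 0.59, the T3-raised list at 0.00 and the 7 genes at -0.16, with Dio1 and Thrsp on the right and Serpina7, Klf9 and Thra on the left.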

How the data were processed

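Liver RNA was measured on 96 one-colour arrays, 1 per sample. Per the labels, RNA was extracted with Trizol and 4 μg was amplified and biotin-labelled. The deposited values are log2 intensities that the authors had normalized between arrays, as their near-equal quartiles show; the method, aligner and build are not given in the sources used here. The 64 control probe sets of 45101 were dropped; 34945 had 1 gene symbol, 932 several and 9160 none, by GEO's platform annotation. Each gene took its probe set with the highest mean (18193 genes). limma 3.58.1 (R 4.3.3) fitted 1 mean for each group of sex, day and dose, read from the titles, over the 96 arrays, with 72 residual and 4.39 prior degrees of freedom. The contrasts were each dose against 0, a trend over dose rank, an average over sexes and days, and differences between sexes and days. P-values are two-sided and Benjamini-Hochberg adjusted, at a threshold of 0.05. Precision is limited by the number of arrays. The genes named are the 7 members, up to 4 called genes of each list, the 3 most and 3 least alike genes among those at or above the median level, Cyp2b10 and Nr1d1; Slco1a4, Ttr, Xist, Abhd17b and Cemip2 fall outside that rule and were named after their values were seen. Members and lists were chosen with earlier results of these data known. On simulated data of this design the procedure was tested for recovery of known changes. Same-numbered arrays of the highest dose and the controls deviated from their group means with correlations between -0.16 and 0.14. Whether the numbers pair the samples was not decided, since low correlations cannot exclude a shared block. Figures were drawn with matplotlib 3.10.9. The alternatives tried are in the closing section.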

Additional observations from a re-analysis of the deposited data

Results flagged for a closer look

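Among the 168 sets of 4 arrays (7 genes in 24 groups), 6 held an array whose gap to the nearest of the others passed Dixon's 95% critical value as a share of the whole range, which chance passes in about 1 set in 20.

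Thrsp in females on day 7 at 150 was 12.43 on array 3, while the other 3 lay between 13.78 and 13.94; that array is the one that made the group overlap its controls. Klf9 in females on day 2 at 150 was 12.33 on array 4 and 12.05 to 12.09 on the others, likewise the value that overlapped the controls. Array 1 of females on day 2 at 0.15 stood apart in both Klf9 (11.83, the others 12.73 to 12.90) and Thra (7.57, the others 7.86 to 7.89). Serpina7 in females on day 2 at 1.5 was 7.49 on array 4, with the others between 5.06 and 5.44. Thrb in males on day 7 at 15 was 6.19 on array 2, with the others between 5.91 and 5.93.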

How the results depend on the processing

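Counts of called members, many of which were 0, held their size under most alternatives. The alternatives were a second quantile normalization, the mean of all probe sets, dim genes left out, fits on 1 sex and day, a variance trend, array weights, a replicate block, and each array left out. The Serpina7 call at 150 in females on day 2 was kept in 4 of 8 fits without 1 array. That of Klf9 in females on day 7 was kept in 2 of 8. In males on day 2 the count at 150 was 1 in place of 0 with the mean of all probe sets, without dim genes, in the fit on that sex and day, and with array weights (Klf9 in each case). In males on day 7 it was 1 after quantile normalization (Thra) and 2 with array weights (Thra and Thrsp). Leaving out 1 array gave 0 to 1 calls at 150 in each sex and day, 0 to 0 at 75 and at the lower doses, 6 to 10 trends, 3 to 6 calls in the average, 0 to 0 differences between sexes or days, and 0 to 1 between control males and females. With the replicate number as a block (replicate block) 10 trends were called in place of 8 and 5 genes in the average. By the labels, same-numbered arrays share only a number. Leaving out the 2 doubted arrays of males on day 2, an alternative added after the data were seen, gave 8 trends and 5 genes in the average. Signs turned only for values that were not called. Slc16a10 at 150 was 0.207 and 0.062 in females on day 2 and -0.008 and -0.261 in females on day 7 on probe sets 1440569_at and 1453675_at, and Thrsp in females on day 7 was -0.15 on 1444166_at. With 1 array left out, Dio1 in females on day 2 ran from -0.036 to 0.767. Thrb ran from -0.138 to 0.044 in females on day 2, -0.007 to 0.217 in females on day 7, -0.059 to 0.103 in males on day 2 and -0.13 to 0.01 in males on day 7. Serpina7 on day 7 ran from -0.573 to 0.077 in females and -0.25 to 0.28 in males. The cause of these turns was not tested.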
